A study of Homo sapiens with 3 samples.

Results

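The 44 genes described here are all human genes that encode a collagen chain. They were taken by name, from COL1A1 to COL28A1, and make up 44 of the 19974 protein-coding genes on chromosomes 1 to 22 and X. Chromatin immunoprecipitation with sequencing (ChIP-seq) had mapped BRG1 in 2 libraries (replicates 1 and 2) made with an anti-BRG1 antibody and 1 input library. The cells were wild-type 12Z, a human cell line of endometriotic epithelium. Nothing was altered in the cells, so the design has 1 condition and no treated group. The labels leave unsaid if the replicates were separate cultures, and the spread between them may be technical only. RNA was not measured, and neither the activity of a collagen gene nor the cell type could be checked against marker levels.

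Collagens are secreted or membrane proteins whose chains wind in threes into a triple helix built of short glycine-containing repeats. Fibrillar collagens form the cross-banded fibres of connective tissue, network collagens form sheets such as the type IV meshwork of basement membranes, and FACIT collagens (fibril-associated collagens with interrupted triple helices) sit on the surface of fibrils. Transmembrane collagens span the cell membrane, type VI chains form beaded filaments, type VII forms the anchoring fibrils below epithelia, and the multiplexins, types XV and XVIII, are basement-membrane proteoglycans. Epithelial cells rest on a basement membrane, and collagen-rich fibrosis is a known feature of endometriotic lesions. BRG1, encoded by SMARCA4, is an ATPase of the SWI/SNF complexes, which move and evict nucleosomes at promoters and enhancers.

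A BRG1 peak was counted for a collagen gene when its midpoint lay in the gene body or, outside all bodies, within 100 kb with that gene as the nearest protein-coding gene. A shared peak is a peak of the authors' overlap list, which holds 6293 peaks on these chromosomes, of which 3244 (51.5%) could be assigned to a gene. The fold over background and the −log10 q of each peak are the authors' values, and read depth is unknown. Higher −log10 q means stronger evidence for a peak within its own list. The weakest peaks have a −log10 q of 1.31 in each replicate list.

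Of the 44 collagen genes, 10 had at least 1 shared peak (22.7%). Among all protein-coding genes the share was 9.67%. Collagen genes are long, however, and a long gene can be assigned more peaks. The median length over which a peak could be assigned was 194 kb for collagen genes and 56.5 kb for all genes. When all genes were divided into 5 equal classes of this length, 27 of the 44 collagen genes fell in the longest class. There 7 of 27 collagen genes (25.9%) had a shared peak, beside 24.7% of all genes of that class. In the fourth class the count was 1 of 6, beside 12.6% of all genes, and in the third it was 2 of 7, beside 7.16%. The second class held 4 collagen genes, none with a shared peak, beside 2.93%, and the shortest class, with 0.976%, held no collagen gene. Among genes of the longest class, which hold most of the family, the collagen share was thus close to the background. Shared peaks were also counted in other ways. Within 50 kb, 8 collagen genes had one (18.2%, beside 8.93% of all genes), and in gene bodies alone 5 did (11.4%, beside 5.95%). By any base of the peak it was 10 (22.7%, beside 9.7%). By 1 bp of overlap between replicate peaks it was 10 (22.7%, beside 9.37%). Where 50% of both replicate peaks overlapped it was 5 (11.4%, beside 5.25%). These alternative counts were not divided by length class.

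**Figure D1:**
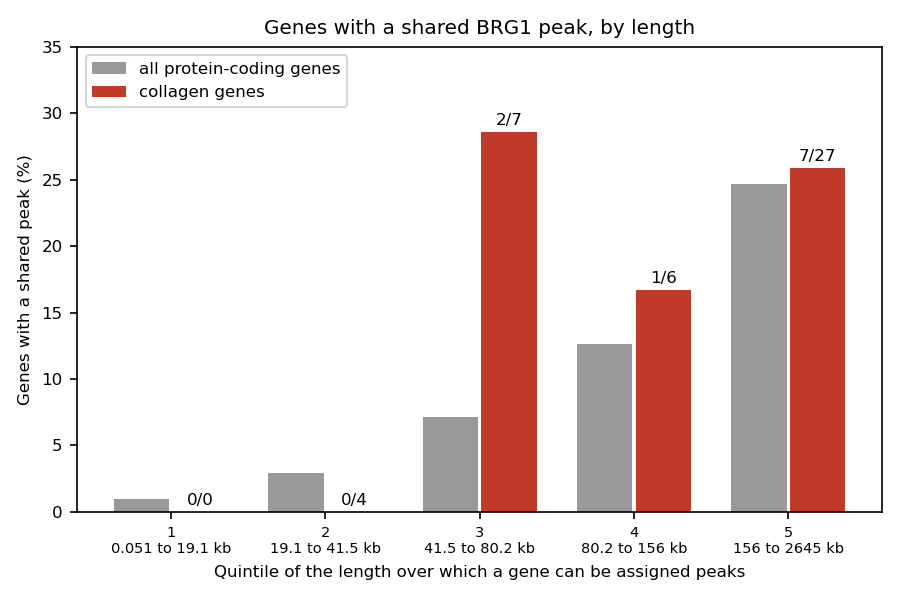
Percent of genes with a shared BRG1 peak (vertical axis) in 5 classes of the length over which a gene can be assigned peaks (horizontal axis, in kb). Grey bars are all protein-coding genes and red bars are collagen genes, with the number of collagen genes over each red bar; in the longest class the bars stand at 24.7% and 25.9%.

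The replicate lists gave larger counts. In replicate 1, 20 collagen genes had a peak (45.5%), beside 20.2% of all genes. In replicate 2 it was 14 (31.8%), beside 11.5%. In the longest class, 46.5% of all genes had a peak in replicate 1 and 29.0% in replicate 2. The collagen shares above cover all 44 collagen genes, of which 27 are in that class, so the comparison is not like for like. Both lists held peaks at 12 of the 44 collagen genes, beside 10.5% of all genes and 1089 of the 3995 genes of the longest class. At least 1 list held a peak at 22 of the 44, beside 21.2% of all genes and 1927 of those 3995. Here too the collagen counts cover all length classes. Neither list held a peak at the other 22 collagen genes. These last were COL2A1, COL5A3, COL11A1, COL11A2 and COL27A1 among the fibrillar chains, COL4A3, COL4A4, COL4A5, COL8A2 and COL10A1 among the network chains, COL6A5 and COL6A6, the FACIT chains COL9A1, COL9A2, COL9A3, COL14A1, COL19A1, COL20A1 and COL22A1, the transmembrane chains COL23A1 and COL25A1, and COL26A1. Absence from a list means that no peak passed the authors' threshold at an unknown depth, not that BRG1 was absent.

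**Figure D2:**
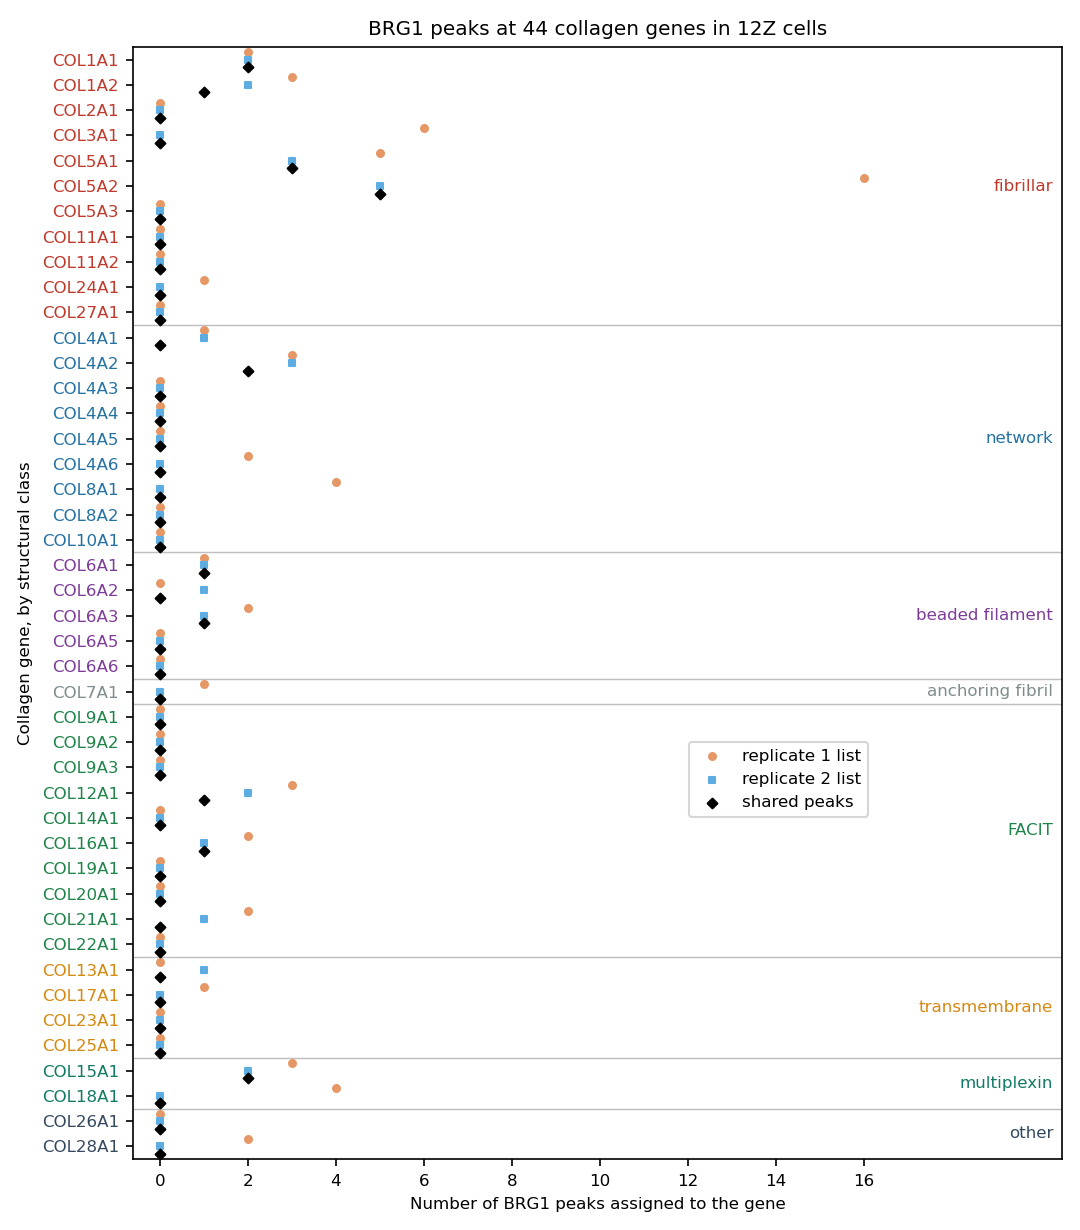
Number of BRG1 peaks assigned to each of the 44 collagen genes (horizontal axis), with genes on the vertical axis grouped by structural class; orange circles are the replicate 1 list, blue squares the replicate 2 list and black diamonds the shared peaks. COL5A2 stands apart with 16 peaks in replicate 1 and 5 in replicate 2, and 22 genes are at 0 in both.

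By structure, 4 of 11 fibrillar genes (36.4%), 1 of 9 network genes (11.1%), 2 of 10 FACIT genes and 0 of 4 transmembrane genes had a shared peak, beside 9.67% of all genes and 24.7% of those in the longest class, to which 27 of the 44 collagen genes belong. Among the smaller classes, 2 of 5 beaded-filament genes and 1 of 2 multiplexin genes had a shared peak, while COL7A1, COL26A1 and COL28A1 had none. Fibrillar genes held 11 of the 19 shared peaks assigned to collagens, or 4.48 per Mb of assignable length. All protein-coding genes together had 1.53 per Mb and those of the longest class 1.56. The 2 multiplexin genes had 5.60 per Mb, above the fibrillar value, from 2 peaks of 1 gene. Beaded-filament genes had 2.41, network genes 1.12, FACIT genes 0.923 and transmembrane genes 0 per Mb. COL5A2 alone held 5 of the fibrillar peaks, counted over an annotated body of 409 kb that may reach beyond its curated transcript. Without COL5A2 the fibrillar density was 2.95 per Mb and that of all collagen genes 1.55, down from 2.01. The classes hold few genes, and differences between them were not tested.

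The strongest peak of the family lay in COL12A1, which encodes the FACIT chain of type XII collagen, a partner of type I fibrils. In replicate 1 the peak had a fold of 5.21 and a −log10 q of 5.34, and in replicate 2 a fold of 6.11 and a −log10 q of 6.88. Both folds were high within their lists, at the 99.5th percentile in replicate 1 and the 99.97th in replicate 2. By −log10 q the percentiles were 97.5 and 97.6, and 93.4 in the overlap list. The 2 replicate peaks did not overlap by 50% of both. The shared peak spanned chr6:75195967-75197023, inside the gene and 9.56 kb downstream of its listed start. COL12A1 was the only collagen gene whose shared peak reached a −log10 q of 5 in both replicates, a level reached by 3.85% of all shared peaks and at 0.125% of all genes. A second replicate 1 peak, at chr6:75196981-75197148, overlapped the edge of the shared peak with a −log10 q of 1.39. Closer to the start, replicate 2 had a peak at chr6:75204750-75205228 (−log10 q 2.08), 1.06 kb downstream, that replicate 1 lacked.

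COL16A1, a FACIT chain found in several tissues, had 1 shared peak at chr1:31712299-31712941, 8.60 kb upstream of its listed start. Its −log10 q was 1.39 in replicate 1 and 2.28 in replicate 2. The replicate 1 value is near the bottom of that list, at percentile 2.71. ADGRB2, the next nearest gene, lay 14.5 kb away from the peak. COL21A1, another FACIT chain, had 2 peaks in replicate 1 and 1 in replicate 2, but the closest of them were 16.6 kb apart and none was shared.

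Among the fibrillar genes, COL1A1 and COL1A2 encode the chains of type I collagen, the main fibre of connective tissue, and COL5A1 and COL5A2 encode chains of type V, which starts fibrils and limits their width. At COL1A1 both shared peaks lay outside the gene, on its higher-coordinate side. The nearer, at chr17:50209605-50211505, was 8.92 kb away, with a −log10 q of 1.92 in replicate 1 and 1.58 in replicate 2. The farther, at chr17:50218131-50220239, was 17.6 kb away, with 3.03 and 1.96. By fold the nearer was higher in replicate 2, with 3.20 and 3.23, and the farther in replicate 1. They were 6.63 kb apart and had no other protein-coding gene within 30 kb. At COL1A2 the shared peak stood 93.5 kb from the gene on its lower-coordinate side, at chr7:94300792-94301960. It had a fold of 4.53 and 4.60 and a −log10 q of 3.80 and 3.46 in replicates 1 and 2. It lay near the limit of assignment and inside LOC112267858, a non-coding gene, while the next protein-coding gene, CASD1, was 208 kb away. Each replicate had further peaks in this stretch that the other lacked, at chr7:94345154-94345784 and chr7:94391608-94392369 in replicate 1 and at chr7:94376008-94376455 in replicate 2.

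COL5A1 had 3 shared peaks, which lay 39.1 kb and 16.8 kb upstream and 20.4 kb downstream of its listed start. The farthest upstream, at chr9:134602301-134603181, was the strongest, with a −log10 q of 3.47 in replicate 1 and 2.80 in replicate 2. The peak at chr9:134624755-134625283 had 1.73 and 1.67, and the one inside the gene, at chr9:134662028-134662360, had 1.97 and 1.73. By fold, the first had 4.18 in replicate 1 and 4.12 in replicate 2, the second 3.40 and 3.52 and the third 3.46 and 3.49, so the replicate with the higher value was not the same for every peak.

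COL5A2 had 5 shared peaks, spread over 264 kb. Only 0.411% of all genes had 5 or more. The gene table gives COL5A2 a body of 409 kb with 1 curated and 3 predicted transcripts, and does not say which of them sets that length. Peaks counted inside the gene may therefore lie outside its curated transcript, and the count of 5 rests on the 409 kb body. The shared peak at chr2:189284497-189286700 covered 2 peaks of replicate 1. The one at chr2:189284498-189285326, with a −log10 q of 2.29, overlapped the replicate 2 peak, with 1.86, while the one at chr2:189285785-189286680, with 3.92, overlapped no peak of replicate 2. The strongest in replicate 2 was at chr2:189393034-189394038, with 3.70 there and 2.26 in replicate 1. The peak at chr2:189129754-189130836 had 2.01 in replicate 1 and 2.49 in replicate 2, and that at chr2:189379090-189380679 had 2.39 and 2.58. At chr2:189178632-189180004 the values were 1.41 and 2.04. There the 2 replicate peaks did not touch and lay 124 bp apart under the wider shared peak. Of the 16 replicate 1 peaks of COL5A2, 12 had no overlapping peak in replicate 2.

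COL3A1, the neighbour of COL5A2, encodes type III collagen of soft tissues. It had 6 peaks in replicate 1, from chr2:188969250-188969696 to chr2:188983863-188984077, and none in replicate 2. Their −log10 q ranged from 1.39 to 2.25, beside a median of 2.06 over the whole replicate 1 list. One of them, at chr2:188974327-188974871, covered the lower-coordinate end of the gene.

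Of the network genes only COL4A2 had shared peaks, and both lay inside the gene. COL4A1 and COL4A2 encode the chains of the widespread type IV meshwork and lie head to head, with their listed starts separated by 126 bases. The peak 13.0 kb downstream of the COL4A2 start, at chr13:110319928-110320628, had a −log10 q of 3.35 in replicate 1 and 2.33 in replicate 2. The peak 40.7 kb downstream, at chr13:110347552-110348442, had 2.06 and 1.69. Replicate 1 had the higher −log10 q and the higher fold at both. Further into the gene each replicate had a peak of its own, 1.84 kb apart, and beyond the far end of COL4A1 the 2 replicates had peaks 11.4 kb apart. The other head-to-head pairs of this class, COL4A3 with COL4A4 and COL4A5 with COL4A6, encode the chains of specialised basement membranes. They had no shared peak, and of these 4 genes only COL4A6 had replicate peaks, 2 in replicate 1. COL8A1, a chain of short-chain hexagonal lattices, had 4 peaks in replicate 1 and none in replicate 2.

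Of the type VI chains, which form beaded filaments around cells, COL6A1 and COL6A3 had 1 shared peak each, and both lay outside the genes. The COL6A3 peak, at chr2:237255017-237255636, lay 68.7 kb beyond the 3' end of the gene, inside the non-coding gene LOC105373953. Its −log10 q was 3.53 in replicate 1 and 1.80 in replicate 2. The COL6A1 peak, at chr21:46049349-46049800, had 1.57 and 1.51. It lay between COL6A1 and COL6A2, 44.5 kb from the former and 48.5 kb from the latter, so its assignment rests on a small difference in distance. A peak of replicate 2 alone, at chr21:46060822-46060922 with a −log10 q of 4.08, lay 37.2 kb upstream of COL6A2.

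The multiplexin gene COL15A1 had 2 shared peaks inside the gene, 75.8 and 86.4 kb downstream of its listed start. The first, at chr9:99019239-99020191, had a −log10 q of 1.92 in replicate 1 and 2.29 in replicate 2. The second, at chr9:99029670-99030923, had 1.67 and 1.80. Replicate 2 had the higher −log10 q and the higher fold at both. COL18A1, whose product releases endostatin, had 4 peaks in replicate 1 and none in replicate 2. Transmembrane genes had 2 replicate peaks in all, 1 in COL17A1, a hemidesmosome component of epithelia (replicate 1, −log10 q 2.69), and 1 in COL13A1 (replicate 2, −log10 q 2.03). Of the 4 transmembrane genes, 3 belong to the longest class.

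As a group, the 19 shared peaks were of ordinary strength. Their fold in the overlap list ran from 2.84 through a median of 3.50 to 4.73, and the median over all gene-assigned shared peaks was 3.47. Their median −log10 q was 3.29 against 3.44, and their median width 1005 bp against 992 bp. For the strongest peak of each replicate under a shared peak, the −log10 q was higher in replicate 1 at 11 of the 19 and in replicate 2 at the other 8, while the fold was higher in replicate 1 at 6 and in replicate 2 at 13. The −log10 q moves with the depth of a library, which is unknown. It reached 2 in both replicates at 7 peaks and 3 at 2 peaks, those of COL12A1 and COL1A2.

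**Figure D3:**
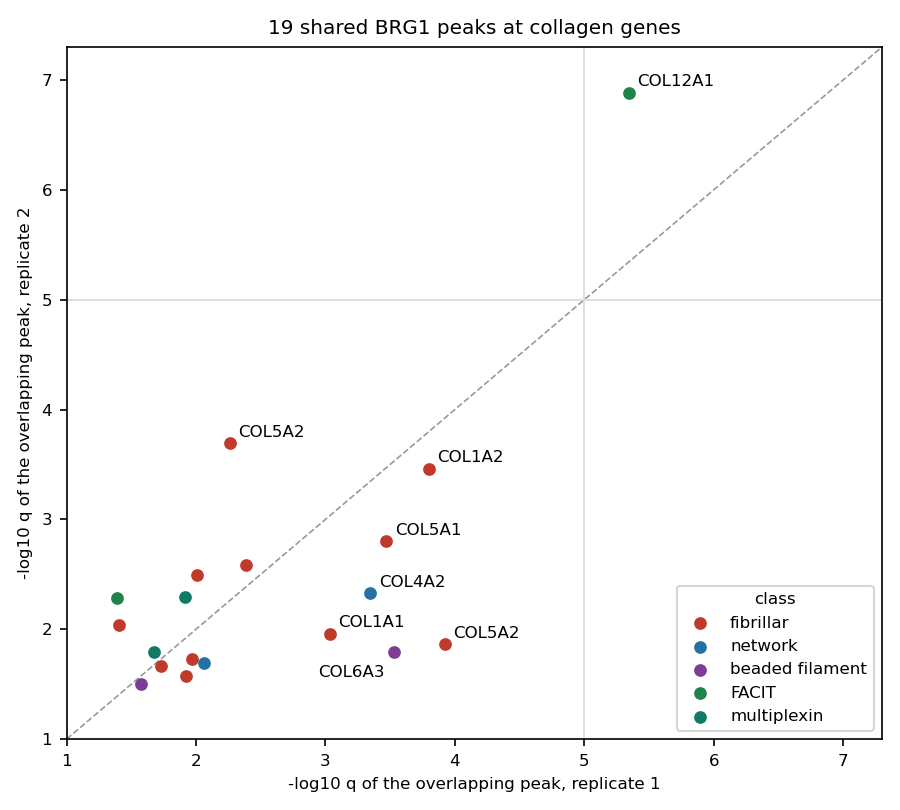
The −log10 q of the strongest peak that overlaps the shared peak in replicate 1 (horizontal axis) and replicate 2 (vertical axis) for each of the 19 shared peaks at collagen genes, coloured by structural class; the dashed line marks equal values and the grey lines a −log10 q of 5. COL12A1 is the only point beyond 5 on both axes, at 5.34 and 6.88, and COL1A2 follows at 3.80 and 3.46.

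Of the 64 replicate 1 peaks at collagen genes, 18 overlapped a replicate 2 peak (28.1%, 95% Wilson interval 18.6 to 40.1%), and over all gene-assigned replicate 1 peaks the share was 33.05%. Of the 26 replicate 2 peaks, 18 overlapped a replicate 1 peak (69.2%, interval 50.01 to 83.5%), beside 74.1% over all genes. Both background shares lie within the intervals, which treat peaks as independent and cover counting error only. Replicate 1 had 2.46 times as many collagen peaks as replicate 2, and 2.20 times as many over all genes.

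None of the 19 shared peaks lay within 3 kb of an annotated end of its collagen gene. Over all gene-assigned shared peaks 11.4% did so, and 1.79% of all genes had such a peak. For genes of the longest class 6.57% of shared peaks lay that close. At COL5A2, which held 5 of the 19, distances run to the ends of the 409 kb body. How far its peaks lie from the ends of its curated transcript is unknown. The shortest distance was 8.60 kb, at COL16A1, the median 40.7 kb and the longest 156 kb, in COL5A2, against a median of 27.9 kb over all gene-assigned shared peaks. Inside gene bodies lay 11 of the 19 (57.9%), beside 56.9% over all genes.

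Peaks near collagen gene ends did occur in single replicates. Replicate 1 had 7 of them, at 6 of the 44 genes, beside 5.86% of all genes. Replicate 2 had 1, at 1 of the 44, beside 2.57%. As a share of collagen peaks this was 10.9% in replicate 1, beside 13.8% over all genes and 8.51% in the longest class. In replicate 2 it was 3.85%, beside 12.6% and 7.70%. None of these peaks near collagen gene ends overlapped a peak of the other replicate. The strongest lay 390 bp upstream of COL7A1, the anchoring-fibril gene of stratified and other epithelia, at chr3:48595611-48595828 (fold 4.60, −log10 q 3.95, replicate 1). Others lay 0.578 kb downstream of the COL5A1 start at chr9:134642333-134642434 (−log10 q 1.96) and 2.82 kb downstream of the COL16A1 start at chr1:31700964-31701424 (−log10 q 2.71), both in replicate 1. COL1A2, COL8A1 and COL3A1 had the remaining replicate 1 peaks near ends, with a −log10 q from 1.39 to 2.25. The single replicate 2 peak was that of COL12A1 described above.

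**Figure D4:**
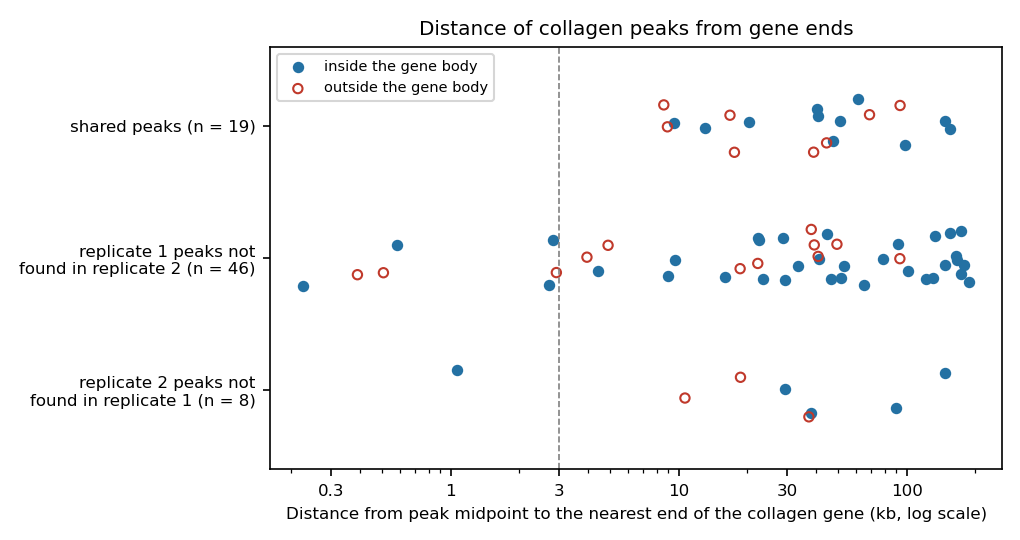
Distance from the peak midpoint to the nearest end of the collagen gene (horizontal axis, kb, log scale) for shared peaks and for the peaks of each replicate not found in the other (rows, with vertical scatter for visibility only); filled points lie inside the gene body and open points outside. The dashed line marks 3 kb, and no shared peak lies to its left, while 8 peaks of single replicates do. Distances at COL5A2 run to the ends of its 409 kb annotated body.

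RefSeq promoter windows (GRCh38.p14) were at hand for 32 of the 44 genes, and no peak of any of the 3 lists overlapped one. They covered only 6 of the 10 collagen genes with a shared peak. COL1A1, COL1A2, COL5A2 and COL6A1 had no window. COL3A1 and COL8A1, which had replicate 1 peaks near an end, had none either. Peaks at the starts of genes without a window could not be counted in this way. The bases before 3 listed starts are shown because a peak of a single replicate lay within about 1 kb of each, together with the stretch between the COL4A1 and COL4A2 starts, which both genes share and where no list had a peak. They are the 250 bases before the start of COL12A1 (chr6:75206054-75206303, minus strand), COL5A1 (chr9:134641553-134641802, plus strand) and COL7A1 (chr3:48595330-48595579, minus strand), and the 126 bases between COL4A1 and COL4A2 (chr13:110307158-110307283, plus strand). Capitals mark GGAATG, the core bound by TEAD factors, CCAAT, the box bound by NF-Y, and CGCG, on either strand. TGANTCA, the AP-1 site, was searched as well and had no match in these 4 stretches.
COL12A1: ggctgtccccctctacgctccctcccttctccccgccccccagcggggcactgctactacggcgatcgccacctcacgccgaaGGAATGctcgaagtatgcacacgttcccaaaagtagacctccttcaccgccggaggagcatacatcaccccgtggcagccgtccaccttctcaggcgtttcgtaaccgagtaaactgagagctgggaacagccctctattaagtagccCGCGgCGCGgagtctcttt
COL5A1: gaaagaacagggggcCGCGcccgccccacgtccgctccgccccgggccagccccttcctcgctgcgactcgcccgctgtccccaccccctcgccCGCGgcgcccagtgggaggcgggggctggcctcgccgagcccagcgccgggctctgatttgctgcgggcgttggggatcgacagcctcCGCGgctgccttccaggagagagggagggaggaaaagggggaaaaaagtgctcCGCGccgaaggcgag
COL7A1: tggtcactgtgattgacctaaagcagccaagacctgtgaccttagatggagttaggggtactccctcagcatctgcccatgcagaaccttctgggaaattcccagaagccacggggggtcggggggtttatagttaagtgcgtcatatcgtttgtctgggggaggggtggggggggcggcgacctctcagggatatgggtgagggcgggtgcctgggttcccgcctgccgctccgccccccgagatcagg
COL4A1 to COL4A2: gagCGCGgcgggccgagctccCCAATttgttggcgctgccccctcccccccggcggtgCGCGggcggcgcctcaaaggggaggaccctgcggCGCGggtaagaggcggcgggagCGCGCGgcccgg

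COL12A1 had 1 match to GGAATG, a motif present in 11.9% of all 35116 promoter windows cut to the same 250 bases. Of the 44 windows of the 32 collagen genes, 3 held it, 1 each at COL12A1, COL10A1 and COL11A2. CGCG, a mark of CpG-rich starts, occurred 2 times before COL12A1, 4 times before COL5A1 and not before COL7A1. It was found in 46.4% of all windows and in 22 of the 44 collagen windows, which belong to 20 of the 32 genes. The stretch between COL4A1 and COL4A2 held CCAAT 1 time, where 21.1% of all windows of 126 bases had a match, and CGCG 5 times, overlapping matches included, where 38.5% had one. Only COL10A1 among the 32 genes held TGANTCA, in 1 of the 44 collagen windows, beside 6.57% of all windows. These matches describe letters in the windows and show no binding, and the sequences under the peaks themselves were not used here.

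Genes that make, process, cross-link, cleave or bind collagen were counted in the same way. Of 54 such genes, 10 had a shared peak (18.5%), beside the 9.67% of all genes. Cross-linking enzymes had the highest count, 4 of 6, followed by procollagen-processing proteases with 2 of 9, receptors with 2 of 10 and enzymes and chaperones of chain assembly with 2 of 19. Collagenases and uptake receptors had 0 of 10.

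The cross-linking genes with a shared peak were LOXL1, LOXL2 and LOXL4, lysyl oxidase-like enzymes that join collagen and elastin chains, and TGM2, a transglutaminase. LOXL1, LOXL4 and TGM2 belong to the third length class, where 7.16% of all genes had a shared peak. The LOXL1 peak, at chr15:73956813-73957177, had a −log10 q of 4.03 in replicate 1 and 4.41 in replicate 2. TGM2 had its stronger peak 0.17 kb from a gene end, at chr20:38167956-38168655, with 3.32 and 3.02. LOXL4 had a peak 1.35 kb outside the gene, at chr10:98269347-98269737, with 4.25 and 1.90. LOXL2 had 4 shared peaks, 3 of them inside the gene, where 5 collagen genes in all had 2 or more and 3.27% of all genes did. The LOXL2 peak outside the gene, at chr8:23411107-23411857, had 2.80 and 1.94. LOXL2 belongs to the fourth length class, where 12.6% of all genes had a shared peak. LOX, the founding lysyl oxidase, had a peak in replicate 1 only, and LOXL3 had none.

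Elsewhere in the list, the shared peaks belonged to PLOD2 and P3H2, which hydroxylate lysine and proline, to ADAMTS3 and ADAMTS14, which remove procollagen propeptides, and to ITGA11 and ITGB1, which pair as a collagen-binding integrin. The strongest of these was the ITGB1 peak at chr10:33004911-33006077, 47.3 kb outside the gene, with a −log10 q of 5.24 in replicate 1 and 4.37 in replicate 2. At ITGA11 the stronger shared peak had 2.14 and 2.04. MMP2 and MMP13 had peaks in replicate 1 alone.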

How the data were processed

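BRG1 ChIP-seq peaks of 2 replicates were analysed; the input has no list here. The submitters' processing notes name MACS2, Bowtie2, bedtools, Picard, SAMtools, Trim Galore and cutadapt, with build GRCh38.p12 and no version or setting. The authors deposited broad peak lists of 17399 (replicate 1), 10157 (replicate 2) and 6343 peaks (overlap), each peak with a fold enrichment, which is a ratio, a −log10 p, a −log10 q and a score, the last not used. The overlap list came from a further call, and whether it pooled reads is not given. Peaks were called before deposit at an unknown depth, so weak binding may be missing from the shallower library.

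Peaks on chromosomes 1 to 22 and X were assigned by midpoint in Python 3.11.15 (numpy 2.4.6, pandas 2.3.3, scipy 1.17.1, matplotlib 3.10.9) to protein-coding genes of GRCh38.p14, whose main chromosomes carry the same coordinates in all GRCh38 releases. Where a peak had several replicate peaks, the one of highest −log10 q was taken. Directions along a gene come from the RefSeq promoter table, and sides are given by coordinate where it has no entry. Assignment and overlap were tested on simulated peaks. No test between samples was possible with 1 condition, and no list test was run. All 44 collagen genes could be named, as could list genes with a shared peak; replicate-only peaks, non-coding and neighbouring genes were named after their values were seen. Members and lists were chosen with earlier results of these data known. Alternatives changed the list, threshold, distance, assignment point and overlap.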

Additional observations from a re-analysis of the deposited data

How the results depend on the processing

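Assignment by any base and sharing by 1 bp moved no count by over 1.5 times. Leaving out COL5A2, chosen after seeing the data, gave 9 collagen genes and 14 shared peaks. The setting without replicate 2 gave 20 collagen genes and that without replicate 1 gave 14, against 10, with 2 to 4 network, 0 to 1 anchoring-fibril, 1 transmembrane, 1 to 2 multiplexin and 0 to 1 other genes; they gave 26 to 64 collagen peaks against 19, 13 to 22 list genes against 10, and 11.5 to 20.2% of all genes against 9.67%. All 10 collagen genes with a shared peak were in both lists. A −log10 q of 5 in both replicates left 1 collagen gene with 1 peak, 0 fibrillar, 0 network, 0 beaded-filament, 0 multiplexin and 1 FACIT gene, 0 list genes and 0.125% of all genes. Within 50 kb, 1 beaded-filament gene and 8.93% of all genes remained. Gene bodies alone gave 5 collagen genes with 11 peaks, 2 fibrillar, 0 beaded-filament and 1 FACIT gene, 4 list genes and 5.95% of all genes. Replicate peaks overlapping by 50% of both gave 5 collagen genes with 6 peaks, 0 beaded-filament and 0 FACIT genes, COL12A1 lost among them, 6 list genes and 5.25% of all genes; the shares found in the other replicate fell to 9.38% (replicate 1) and 23.1% (replicate 2). Fewer peaks or a shorter length remain by construction in each of these stricter settings. No paired analysis was possible because there is a single condition. Without read counts, depth limits cannot be given.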
